A study of Mus musculus with 12 samples.

Results

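Nonclassical MHC class I genes were followed in intracranial melanoma of the mouse. The genes were H2-Q4, H2-Q6, H2-Q7, H2-T22, H2-T23, H2-M3, Cd1d1 and Mr1, chosen by name as the rows whose Ensembl identifier maps to these 8 symbols, out of 47069 genes in the tables. All 8 were found, and all 8 passed the filter on low counts described under the processing. The tissue was tumor taken from the brain of C57BL/6 mice 9 days after 100000 cells of B16 F1, an established pigmented melanoma line of the mouse, had been put there. There were 4 groups of 3 libraries, each library labelled as a separate biological sample. The first group had intracranial and extracranial tumors and received anti-PD-1 with anti-CTLA-4, the combined checkpoint antibodies called therapy here. The second had both tumors and received the control antibody IgG. The third had the intracranial tumor only and received therapy, and the last had the intracranial tumor only and received IgG. The labels give no age, sex, batch, litter or pairing, so replicates carry numbers in accession order only. The p-values of the main fit set differences between group means against the spread between libraries within groups, estimated over all 4 groups.

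Classical class I molecules are polymorphic, stand on nearly all cells and show peptides to CD8 T cells. Nonclassical class I molecules are less variable, mostly pair with the same light chain, B2m, and bind a narrower range of ligands. H2-T23 encodes Qa-1, which holds a peptide cut from the leader of classical class I chains and is read by CD94 and NKG2 receptors on NK and T cells. H2-Q6 and H2-Q7 are Qa-2 genes, H2-T22 is a ligand of some gamma delta T cell receptors, and H2-M3 presents N-formylated peptides of bacteria and mitochondria. Cd1d1 presents lipids to NKT cells, and Mr1 presents small metabolites of vitamin B synthesis to MAIT cells. Interferon gamma raises many class I genes through elements in their promoters.

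On GRCm38, 6 of the genes lie in the H2 region of chromosome 17 and are protein coding. H2-Q4 (ENSMUSG00000035929, chr17:35379617-35385290), H2-Q6 (ENSMUSG00000073409, chr17:35424850-35430055) and H2-Q7 (ENSMUSG00000060550, chr17:35439155-35443773) lie on the plus strand of the Q region. H2-T23 (ENSMUSG00000067212, chr17:36029773-36032855) and H2-T22 (ENSMUSG00000056116, chr17:36037128-36042747) are neighbours on the minus strand, and H2-M3 (ENSMUSG00000016206, chr17:37270220-37274484) lies on the plus strand. Cd1d1 (ENSMUSG00000028076, chr3:86995834-86999441) and Mr1 (ENSMUSG00000026471, chr1:155127277-155146814) lie outside the H2 region, on the minus strand of their chromosomes.

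Because the 6 H2 genes moved together across the libraries and Mr1 moved less, the 250 bases before the RefSeq start of 6 genes are shown (RefSeq, GRCm38.p6, each 5′ to 3′ on the strand of its gene). Of the 8 genes, 7 matched a promoter entry and Cd1d1 did not. Capitals mark the motif TTTCACTT, letters of the interferon response core of class I promoters, and, on either strand, the core of an interferon-stimulated response element, which is GAAA and GAAA set 2 bases apart.
H2-Q6, chr17:35424600-35424849, plus strand: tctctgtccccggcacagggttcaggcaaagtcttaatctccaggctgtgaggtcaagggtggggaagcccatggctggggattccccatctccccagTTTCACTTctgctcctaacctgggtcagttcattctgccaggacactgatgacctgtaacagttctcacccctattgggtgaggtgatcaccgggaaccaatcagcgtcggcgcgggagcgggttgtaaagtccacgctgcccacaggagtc
H2-Q7, chr17:35438905-35439154, plus strand: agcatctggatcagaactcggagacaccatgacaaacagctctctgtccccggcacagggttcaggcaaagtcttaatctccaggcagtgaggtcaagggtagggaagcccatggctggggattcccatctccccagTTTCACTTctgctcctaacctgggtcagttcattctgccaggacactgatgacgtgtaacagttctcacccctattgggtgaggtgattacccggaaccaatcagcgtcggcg
H2-T22, chr17:36042743-36042992, minus strand: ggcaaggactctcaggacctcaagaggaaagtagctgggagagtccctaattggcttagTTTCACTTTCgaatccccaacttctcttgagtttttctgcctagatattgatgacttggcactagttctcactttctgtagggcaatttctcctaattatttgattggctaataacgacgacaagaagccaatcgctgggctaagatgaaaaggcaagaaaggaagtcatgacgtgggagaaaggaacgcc
H2-T23, chr17:36032702-36032951, minus strand: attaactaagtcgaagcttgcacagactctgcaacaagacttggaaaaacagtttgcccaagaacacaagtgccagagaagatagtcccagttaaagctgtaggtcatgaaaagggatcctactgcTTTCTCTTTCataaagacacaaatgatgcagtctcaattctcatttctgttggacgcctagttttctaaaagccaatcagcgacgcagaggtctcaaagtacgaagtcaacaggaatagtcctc
H2-M3, chr17:37269984-37270233, plus strand: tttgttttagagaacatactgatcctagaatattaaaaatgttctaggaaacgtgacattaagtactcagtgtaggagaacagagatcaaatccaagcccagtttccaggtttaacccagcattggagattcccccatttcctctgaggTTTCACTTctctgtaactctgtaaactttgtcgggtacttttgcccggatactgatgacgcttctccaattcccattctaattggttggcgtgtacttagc
Mr1, chr1:155146815-155147064, minus strand: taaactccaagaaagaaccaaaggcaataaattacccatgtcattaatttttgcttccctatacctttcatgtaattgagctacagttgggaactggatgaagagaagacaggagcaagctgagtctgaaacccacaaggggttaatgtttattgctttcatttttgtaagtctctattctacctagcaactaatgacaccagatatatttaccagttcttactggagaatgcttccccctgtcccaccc

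The core of the interferon-stimulated response element was found in H2-T22 and H2-T23, 2 of 7 windows, and in 2.98% of 32851 promoter windows of the same length searched on both strands. The motif TTTCACTT was found in 5 of 7 windows (H2-Q4, H2-Q6, H2-Q7, H2-T22 and H2-M3) and in 1.36% of all windows. It was added after the windows had been read, so these shares do not test whether it is frequent here. The windows of the Q genes are also alike, and in H2-T22 the motif overlaps the interferon-stimulated element. H2-T23 lacks TTTCACTT and holds TTTCTCTTTC, starting 124 bases before its RefSeq start. That match lies inside the GENCODE span of H2-T23 given above, which ends at 36032855. The inverted CCAAT box ATTGG, the letters bound by NF-Y, occurred in 6 of 7 windows and in 33.8% of all windows, and Mr1 was the window without it. TGACG, letters bound by CREB, occurred in 4 of 7 windows (H2-Q4, H2-Q7, H2-T22 and H2-M3) against 17.8% of all windows. An exact string of 10 bases, taken as letters of a kappa B site, occurred in H2-Q6 alone among the 7, and in 0.0852% of all windows. Only exact matches were counted, and the H2-Q7 window holds all letters of that string but the last. The match therefore does not show that the other windows lack a kappa B site. TTCNNNGAA, the letters of an interferon gamma activated site, occurred in H2-M3 and in 7.02% of all windows. Aligned end to end, the windows of H2-Q4 and H2-Q6 were identical at 209 of 266 columns (78.6%). Those of H2-Q6 and H2-Q7 were identical at 205 of 290 columns (70.7%). The H2-Q7 window is offset, since TTTCACTT starts 113 bases before its start, against 152 in H2-Q6. The columns of that offset count as not identical, so the 2 percentages do not rank the likeness of the pairs. These matches describe letters in a window.

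Copies limit how far the H2 genes can be separated. Of all stretches of 50 bases in their annotated transcripts, 39.2% of H2-Q4, 35% of H2-Q6, 34.9% of H2-Q7, 43.9% of H2-T22 and 29.8% of H2-T23 also occurred in a transcript of another gene. For H2-T22 most of them were shared with H2-T10 (37.5% of its stretches). H2-M3 shared 0.576% and Mr1 shared 0%, so these 2 genes were nearly free of the problem. Cd1d1 shared 25.1%, all with Cd1d2, which had 0 reads in all 12 libraries. In stretches of 100 bases the shares were lower, at 13.9% of H2-Q4, 13.0% of H2-Q6 and 17.2% of H2-Q7. They were 12.4% of H2-T22 (8.57% with H2-T10), 7.28% of H2-T23 and 13.8% of Cd1d1. Antisense genes overlap H2-Q4 (Gm11131, 1 to 33 reads a library), H2-T22 and H2-T23 (A930015D03Rik, 0 to 6 reads). The sources used here do not give the strand setting of the counting, so reads of these pairs cannot be told apart.

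Libraries held 18427495 to 22294182 reads. The 6 melanocyte and melanoma markers averaged 11.01 to 11.50 on the log2 CPM scale (counts scaled to library size by TMM, prior count 2) in every library, so the tumor label held in all of them. Brain tissue varied far more, with the 8 neuron markers averaging -0.53 to 6.87. Correlations of log2 CPM between replicates ran from 0.917 to 0.986. Earlier results of these data had shown 2 libraries to stand apart from their groups, replicate 2 of both tumors under IgG and replicate 2 of intracranial only under IgG. The sample name of the first of them ends in B2, while those of all other libraries end in B, and what this means is not known here. Both libraries enter the results below. The fitted differences of the 8 genes, the correlations and the counts of the gene lists are also given without them.

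H2-T23 (Qa-1) had the highest median level. It had 128, 729 and 350 FPKM (reads scaled to gene length and to the reads of the library) under therapy with both tumors, against 59.8, 6.29 and 61.9 FPKM under IgG with both tumors. With the intracranial tumor only it had 4.24, 8.06 and 94.3 FPKM under therapy, against 6.51, 199 and 7.84 FPKM under IgG. All 3 treated libraries with both tumors lay above all IgG libraries with both tumors and above all treated libraries with the intracranial tumor only. Among the other 9 libraries levels were split, since 5 of the 12 libraries lay under 10 FPKM while replicate 2 of intracranial only under IgG, at 199 FPKM, exceeded the lowest treated library with both tumors. The highest library stood 172 times above the lowest.

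H2-T22, its neighbour, was high in the same libraries over a narrower range. It had 43.9, 219 and 117 FPKM under therapy with both tumors, against 29.4, 9.56 and 33.4 FPKM under IgG. With the intracranial tumor only it had 8.22, 8.64 and 45.8 FPKM under therapy, against 7.80, 83.2 and 8.19 FPKM under IgG. Replicate 3 of the treated intracranial group, at 45.8 FPKM, passed the lowest treated library with both tumors, so those groups overlapped.

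The Qa-2 genes had the lowest median levels of the 6 H2 genes. H2-Q7 had 20.6, 47.3 and 43.5 FPKM under therapy with both tumors, against 6.29, 0.585 and 8.66 FPKM under IgG with both tumors. H2-Q7 had 0.772, 1.16 and 3.77 FPKM under therapy with the intracranial tumor only, against 0.400, 19.1 and 0.626 FPKM under IgG. No library outside the treated group with both tumors reached that group's lowest value of 20.6 FPKM.

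H2-Q6 had 14.6, 33.2 and 35.7 FPKM under therapy with both tumors, against 5.38, 0.411 and 8.43 FPKM under IgG with both tumors. H2-Q6 had 0.635, 0.275 and 3.01 FPKM under therapy with the intracranial tumor only, against 0.170, 11.7 and 0.460 FPKM under IgG. In reads these intracranial values rest on 18, 8 and 103 reads under therapy, against 5, 345 and 13 under IgG, so the low end of H2-Q6 is a matter of few reads. As for H2-Q7, the treated libraries with both tumors stood above the other 9.

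H2-Q4, a further Q-region heavy chain, had 36.9, 80.8 and 67.7 FPKM under therapy with both tumors, against 14.4, 4.21 and 24.9 FPKM under IgG. H2-Q4 had 4.26, 4.36 and 24.3 FPKM under therapy with the intracranial tumor only, against 3.01, 39.7 and 3.04 FPKM under IgG. Replicate 2 of the last group lay just above the lowest treated library with both tumors.

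H2-M3, the carrier of N-formylated peptides, had 16.3, 50.2 and 29.6 FPKM under therapy with both tumors, against 9.11, 3.30 and 9.46 FPKM under IgG. H2-M3 had 1.77, 2.2 and 10.4 FPKM under therapy with the intracranial tumor only, against 1.52, 21.4 and 1.92 FPKM under IgG. Here too the treated libraries with both tumors did not overlap the IgG libraries with both tumors or the treated libraries with the intracranial tumor only.

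Cd1d1 was scarce and Mr1 steady. Cd1d1, the lipid-presenting molecule, had 1.09, 2.29 and 1.93 FPKM under therapy with both tumors, against 0.760, 0.479 and 1.49 FPKM under IgG. Cd1d1 had 1.07, 0.347 and 0.629 FPKM under therapy with the intracranial tumor only, against 0.686, 1.46 and 0.626 FPKM under IgG, and 8 to 55 reads per library lay behind all of these values. The treated group with both tumors overlapped the IgG group with both tumors and cleared the treated intracranial group by a narrow gap.

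Mr1, the metabolite-presenting molecule, had 21.0, 23.7 and 21.8 FPKM under therapy with both tumors, against 19.0, 9.00 and 21.8 FPKM under IgG. Mr1 had 13.0, 14 and 15.6 FPKM under therapy with the intracranial tumor only, against 13.2, 16.3 and 18.3 FPKM under IgG. Its highest library stood 2.63 times above its lowest, against 26.8 times for H2-Q4, 28.1 times for H2-T22, 33.0 times for H2-M3, 118 times for H2-Q7 and 210 times for H2-Q6.

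**Figure D1:**
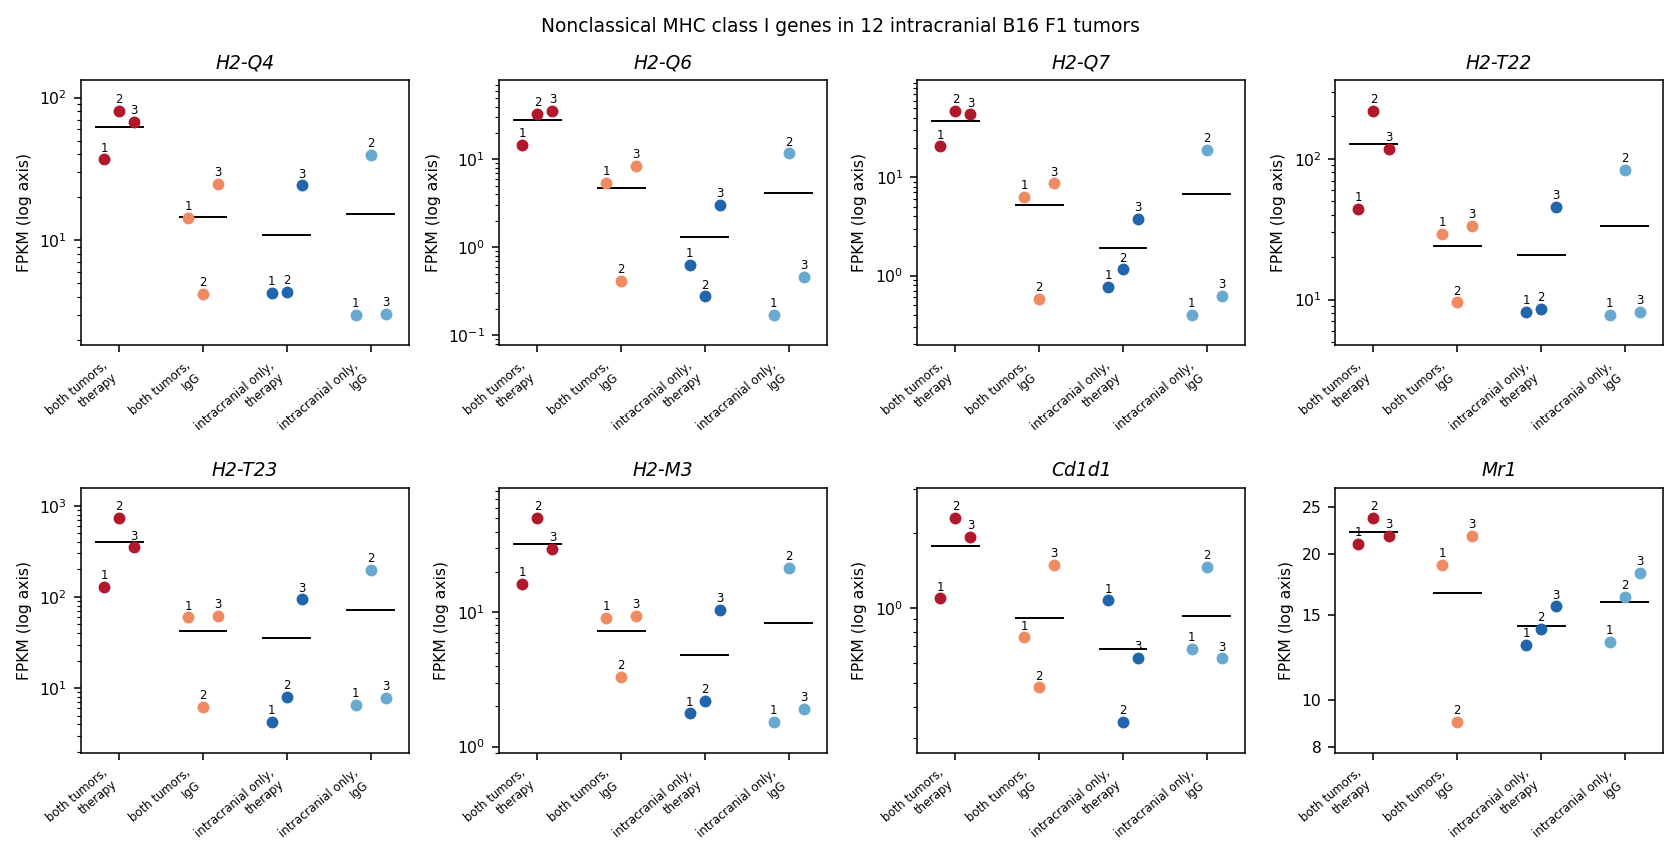
FPKM (log axis) of each of the 8 genes in the 12 libraries; points are libraries with their replicate number, horizontal lines are group means of 3 libraries, and the groups run from both tumors under therapy to intracranial only under IgG. For the H2 genes, replicate 2 of the intracranial IgG group lies far above its group and replicate 2 of the both tumors IgG group below it, while Mr1 stays within 9.00 to 23.7 FPKM.

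By median FPKM over the 12 libraries, the genes ranked H2-T23 (60.8), H2-T22 (31.4), H2-Q4 (19.3), Mr1 (17.3), H2-M3 (9.28), H2-Q7 (5.03), H2-Q6 (4.20) and Cd1d1 (0.915). Only 2 neighbouring pairs kept their order in every library: H2-T22 exceeded H2-Q4 and H2-Q7 exceeded H2-Q6 in 12 of 12. H2-M3 exceeded H2-Q7 in 10 of 12 libraries and Mr1 exceeded H2-M3 in 9. H2-T23 exceeded H2-T22 in 7 of 12 libraries, H2-Q4 exceeded Mr1 in 6 and H2-Q6 exceeded Cd1d1 in 7. The order of these neighbours thus changed between libraries, and no test was run on it.

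In mice with both tumors, the question was whether therapy changed these genes in the brain tumor. Fitted levels were higher under therapy for all 8 genes, but none of the differences passed the test. H2-T23 averaged 403 ± 304 FPKM under therapy and 42.6 ± 31.5 FPKM under IgG (SD, n = 3 each), a fitted log2 difference of 3.25 ± 1.57 (SE). H2-Q7 averaged 37.1 ± 14.4 FPKM under therapy and 5.18 ± 4.15 FPKM under IgG, a log2 difference of 2.86 ± 1.33. H2-T22, at 2.40 ± 1.06, had the smallest p. By the quasi-likelihood test of edgeR, with Benjamini-Hochberg adjustment over 15925 genes, 0 of 8 genes were called at 0.05 (adjusted p 0.142 to 0.241), against 5.39% of all genes tested. At an unadjusted p under 0.05 the test gave 1 of the 8 genes, H2-T22, and 33.4% of all genes. DESeq2 and limma on log2(FPKM + 1) also called 0 of 8, against 10.9% and 16.5% of all genes.

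The other fitted log2 differences were 2.57 ± 1.40 for H2-Q6, 2.14 ± 1.02 for H2-M3, 2.11 ± 1.07 for H2-Q4, 0.96 ± 0.54 for Cd1d1 and 0.41 ± 0.24 for Mr1. The median of the 8 genes was 2.27, against 0.02 over all genes tested. For the 6 H2 genes all treated libraries lay above all IgG libraries, and for Cd1d1 and Mr1 the groups overlapped. Such a gap upward was present in 18.7% of all genes. Without both libraries that stand apart, the differences were 0.13 (Mr1) to 2.74 (H2-T23) and 0 of 8 were called, against 0% of all genes.

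With the intracranial tumor only, fitted levels were lower under therapy for all 8 genes, and no difference passed the test. H2-T23 averaged 35.5 ± 50.9 FPKM under therapy and 71.3 ± 111 FPKM under IgG (SD, n = 3 each), so the SD exceeded the mean in both groups. The log2 differences ran from -1.75 ± 1.31 (H2-Q7) to -0.12 ± 0.24 (Mr1), with a median of -0.67 against -0.03 over all genes. With edgeR, 0 of 8 genes were called (adjusted p 0.623 to 0.901), against 0% of all genes. At an unadjusted p under 0.05 it gave 0 of 8, against 13.5% of all genes. DESeq2 and limma also called 0 of 8, against 3.61% and 0% of all genes.

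For the H2 genes that direction rested on 1 library. With 1 library left out, Cd1d1 ran from -0.86 to 0.09 and Mr1 stayed below 0 (-0.23 to -0.01). Without both libraries that stand apart, of which only replicate 2 of intracranial only under IgG belongs to this comparison, the differences of the H2 genes turned positive, from 1.43 ± 0.83 (H2-T22) to 2.35 ± 1.23 (H2-T23), and 0 of 8 were called (adjusted p 0.216 to 0.967). That fit called 6.55% of all genes. In those 10 libraries the treated group was high in replicate 3 only. H2-T22 had 8.22, 8.64 and 45.8 FPKM under therapy, against 7.80 and 8.19 FPKM in the remaining IgG libraries.

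Under therapy, the Qa-2 genes were higher in mice that also had an extracranial tumor. H2-Q6 averaged 27.8 ± 11.5 FPKM with both tumors and 1.31 ± 1.49 FPKM with the intracranial tumor only (SD, n = 3 each), a 20.1-fold difference (log2 4.33 ± 1.53, adjusted p 0.0397, edgeR). H2-Q7 averaged 37.1 ± 14.4 FPKM with both tumors and 1.90 ± 1.63 FPKM with the intracranial tumor only, an 18.6-fold difference (log2 4.21 ± 1.42, adjusted p 0.0332). Both Qa-2 genes rose, in 3 of 3 libraries above 3 of 3. They were the only 2 of the 8 genes called, against 45.4% of all genes, of which 24.4% were called higher, so the share called among the 8 was not above the background.

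The other 6 genes had fitted differences in the same direction that missed the threshold. The log2 differences were 3.44 ± 1.58 for H2-T23 (adjusted p 0.0971), 2.67 ± 1.04 for H2-M3 (0.0573), 2.53 ± 1.06 for H2-T22 (0.0727) and 2.43 ± 1.08 for H2-Q4 (0.0888). Cd1d1 differed by 1.31 ± 0.55 (0.0711) and Mr1 by 0.57 ± 0.24 (0.0748). At an unadjusted p under 0.05 the test gave 7 of the 8 genes, all but H2-T23, against 53.9% of all genes. The median of the 8 was 2.60, against 0.03 over all genes. For 7 genes, H2-T22 being the exception, the groups did not overlap, which held upward for 35.1% of all genes.

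These calls depended on single libraries in both ways. Without both libraries that stand apart, which belong to neither of these groups but enter the common estimate of the spread, all 8 genes were called, with nearly the same differences (H2-Q7 4.20 ± 0.57, adjusted p 0.000515; Cd1d1 1.31 ± 0.47, adjusted p 0.0411). That fit called 51.9% of all genes. Without replicate 2 or 3 of the treated group with both tumors, or replicate 2 of the treated intracranial group, 0 of 8 were called. The shares of all genes there were 29.1%, 33.6% and 34.5%. Without replicate 1 of the treated intracranial group or of both tumors under IgG, 1 of 8 was called. Here 35.6% and 42.4% of all genes were called. Without replicate 3 of the treated intracranial group or replicate 2 of intracranial only under IgG, 6 of 8 were called. Here the shares were 37.9% and 46%. DESeq2 called 5 of 8 (26.6% of all genes), limma on log2(FPKM + 1) called 7 (46.2%), and edgeR on the 2 groups alone called 6 (47.5%). Over all settings tried, the adjusted p of H2-Q6 ran from 0.00142 to 0.115 and that of H2-Q7 from 0.000515 to 0.102.

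Under IgG, no difference with the extracranial tumor was detected. The log2 differences ran from -0.76 ± 1.45 (H2-T23) to 0.17 ± 1.34 (H2-Q6), and Mr1 stood at 0.04 ± 0.24. With edgeR, 0 of 8 genes were called (adjusted p 1 for each), against 0% of all genes, and 0 of 8 at an unadjusted p under 0.05, against 1.18% of all genes; DESeq2 and limma also called 0 of 8. The median of the 8 was -0.15, against 0.01 over all genes. This comparison holds both libraries that stand apart, and without them the fitted differences were 0.33 ± 0.16 for Mr1, 0.72 ± 0.59 for Cd1d1 and 1.93 ± 0.89 (H2-T22) to 4.40 ± 1.03 (H2-Q6) for the H2 genes, with 0 of 8 called (adjusted p 0.544 to 0.833).

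The interaction asked whether the therapy effect differed with the extracranial tumor. It was fitted above 0 for all 8 genes, from 0.53 ± 0.34 (Mr1) to 4.61 ± 1.86 (H2-Q7), and the comparisons within it share libraries with those above. With edgeR, 0 of 8 were called (adjusted p 0.0921 to 0.267), against 22% of all genes, and 1 of 8, H2-Q7, at an unadjusted p under 0.05, against 39.4% of all genes. DESeq2 called H2-Q7 (4.68, adjusted p 0.0457) and limma called 0 of 8, against 16.6% and 19.6% of all genes. Without both libraries that stand apart, the values fell to between -0.23 (H2-Q4) and 0.59 (H2-T22), with adjusted p 0.498 to 0.971.

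**Figure D2:**
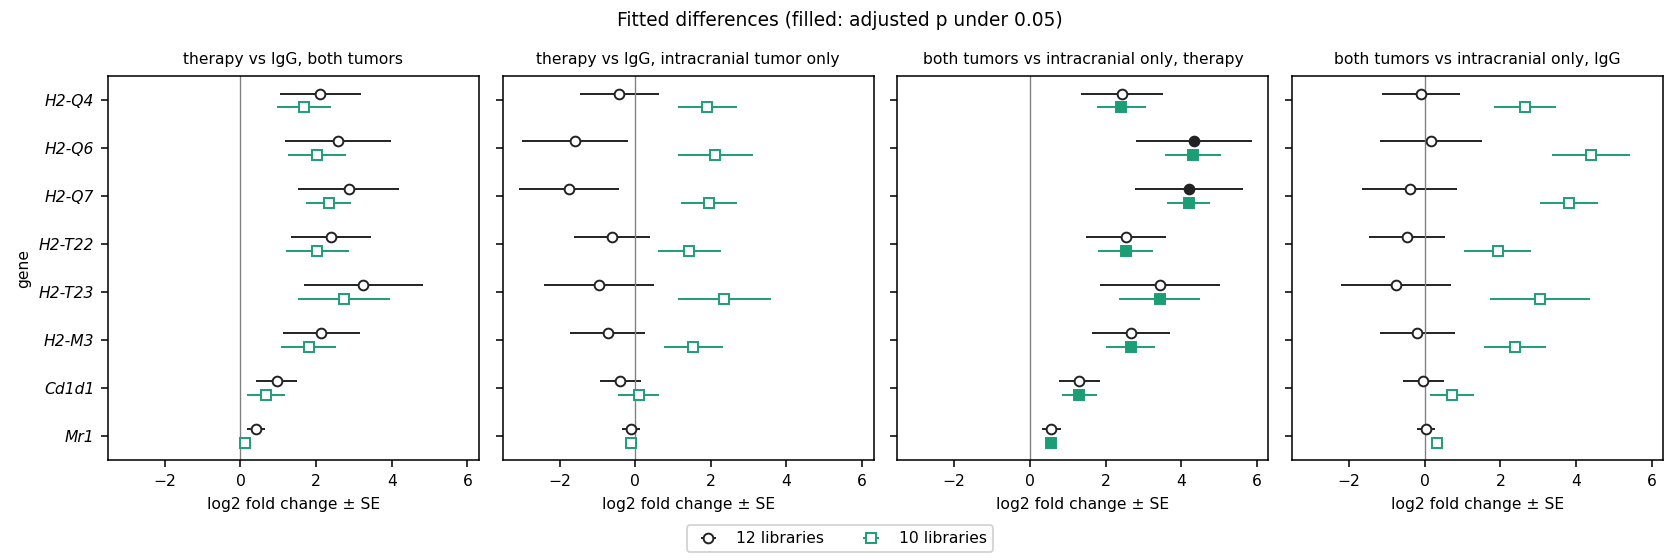
Fitted log2 fold change ± SE of each gene in 4 comparisons, with therapy over IgG or both tumors over intracranial only. Circles are fits on all 12 libraries and squares fits without both libraries that stand apart; filled symbols have an adjusted p under 0.05. The third panel holds all filled symbols, 2 circles and 8 squares, and in both panels that hold the intracranial IgG group the squares of the H2 genes lie well to the right of the circles.

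Within each library, ratios of FPKM showed that the H2 genes did not scale alike. H2-T23 had 292%, 333% and 300% of the FPKM of H2-T22 under therapy with both tumors, against 203%, 65.8% and 185% under IgG. With the intracranial tumor only the ratio was 51.6%, 93.3% and 206% under therapy, against 83.5%, 240% and 95.7% under IgG. Libraries with much H2-T23 had the higher ratio and the 5 libraries under 10 FPKM had ratios under 100%, that is, more H2-T22 than H2-T23. The treated group with both tumors lay above the other 9 libraries; an exact two-sided permutation test of 3 against 3 libraries cannot go below 0.1, so none was run on ratios.

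Set against the classical heavy chain H2-K1, H2-T22 ran the other way. It had 4.38%, 6.89% and 5.29% of the FPKM of H2-K1 under therapy with both tumors, against 9.68%, 7.49% and 7.65% under therapy with the intracranial tumor only, with no overlap. Under IgG the share of H2-K1 was 7.13%, 7.36% and 5.88% with both tumors, against 10.5%, 6.45% and 10.5% with the intracranial tumor only. H2-T23 had 12.8%, 23% and 15.9% of H2-K1 under therapy with both tumors, against 4.99%, 6.99% and 15.7% under therapy with the intracranial tumor only. H2-M3 and H2-Q4 kept close to H2-K1, within 1.34% to 2.54% and 2.55% to 5.02% over all 12 libraries, while H2-Q7 ran from 0.450% to 2.06% and H2-Q6 from 0.228% to 1.62%.

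Taking the 6 H2 genes together, they held 8.32%, 13.1% and 10.5% of the FPKM summed over them, H2-K1 and H2-D1 under therapy with both tumors, against 9.65%, 5.85% and 7.96% under IgG. With the intracranial tumor only the share was 6.44%, 8.09% and 10.4% under therapy, against 8.63%, 10.4% and 8.31% under IgG. The share stayed between 5.85% and 13.1% while the summed level ran from 19.4 to 1160 FPKM, and the groups overlapped. The lowest share was 6.44% when the 2 libraries that stand apart were left out.

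**Figure D3:**
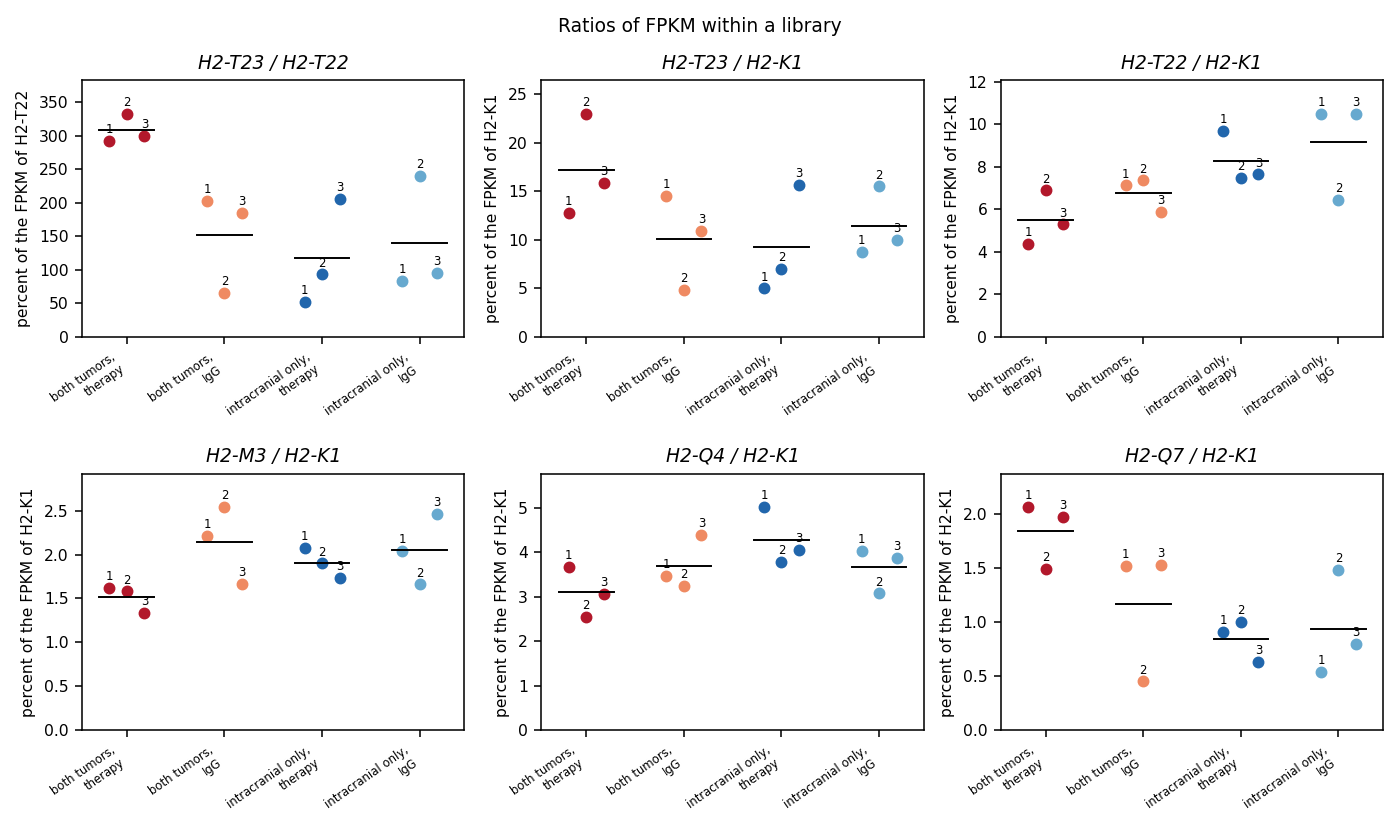
FPKM of one gene as a percent of another within each library, in 6 panels with groups from both tumors under therapy to intracranial only under IgG; points are libraries and lines are group means. H2-T23 over H2-T22 is 292% to 333% in the treated libraries with both tumors and 51.6% to 240% elsewhere. H2-T22 over H2-K1 is 4.38% to 6.89% in the treated libraries with both tumors. That range lies below the treated libraries with the intracranial tumor only (7.49% to 9.68%) and overlaps both IgG groups.

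Across the 12 libraries the 6 H2 genes correlated at Pearson r 0.947 to 0.990 on the log2 CPM scale, Cd1d1 with them at 0.754 to 0.833 and Mr1 at 0.682 to 0.780. Over the 10 libraries left when the 2 that stand apart were dropped, the ranges were 0.942 to 0.995 among the H2 genes, 0.705 to 0.803 for Cd1d1 and 0.819 to 0.890 for Mr1. These values describe libraries that share groups and scaling, and no p is given. Among 12962 genes, those most alike to H2-T23 included Il12rb1 (r = 0.997) and Vwa5a (0.995), and the most alike to H2-T22 were Psme1 (0.993), Samhd1 and Trafd1 (0.991 each). H2-M3 was nearest Socs1 (0.997), H2-K1 (0.996) and H2-Ab1 (0.995), and H2-Q4 nearest H2-K1, B2m and H2-D1 (0.994 each).

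The nearest genes of the Qa-2 genes were other ones by name. The values of r differ little between the H2 genes, which correlated with each other at 0.947 to 0.990, so these names do not set the Qa-2 genes apart. H2-Q7 was nearest Ikzf3 (0.994), Cd3g (0.993), a chain of the T cell receptor complex, and Ubd (0.992). H2-Q6 was nearest Ptpn22 and Ms4a4b (0.991 each) and Nkg7 (0.990), which are expressed in T and NK cells. Cd1d1 was nearest Nrip3 (0.949), Tmem126b and Epb41l4a (0.934 each), and Mr1 nearest Kiss1r (0.963), Sh3bp5 (0.960) and Cobl (0.955), at lower r than the H2 genes reached with their nearest genes. Over the 10 libraries without the 2 that stand apart, the pairs named here and above kept r between 0.989 and 0.997 for the H2 genes and between 0.934 and 0.982 for Cd1d1 and Mr1.

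Class I heavy chains need B2m, and peptide-binding ones need the loading machinery. Of 17 classical class I and loading genes, 0 were called for therapy with both tumors, and for both tumors under therapy 0 were called higher and 1 lower. Over all genes tested, 5.39% were called in the first comparison, and 24.4% were called higher and 21% lower in the second. H2-K1 differed by 2.93 ± 1.19 (log2, adjusted p 0.0643), H2-D1 by 2.80 ± 1.08 (0.0550) and B2m by 2.51 ± 1.00 (0.0615) between both tumors and intracranial only under therapy. The transporter genes Tap1 and Tap2 and the loading factor Tapbp differed by 2.24 ± 1.51 (0.245), 2.70 ± 1.38 (0.131) and 2.28 ± 1.08 (0.107), the immunoproteasome subunit Psmb8 by 2.76 ± 1.67 (0.197) and the class I transactivator Nlrc5 by 1.81 ± 1.30 (0.272). None of these passed the test. The median of the 17 genes was 2.2, against 0.03 over all genes. Without the 2 libraries that stand apart, 10 of the 17 were called higher and 1 lower for both tumors under therapy. Over all 16283 genes tested in that fit, 4655 were called higher and 3788 lower. The median of the 17 was the same, 2.2, and H2-K1, H2-D1 and B2m were among the 10 (adjusted p 0.00794, 0.00586 and 0.00579, edgeR).

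Of 24 genes of interferon signaling and class I transcription, 1 was called higher for therapy with both tumors, and 4 higher and 2 lower for both tumors under therapy. These counts stand against 1.24% of all genes called higher in the first comparison, and 24.4% called higher and 21% called lower in the second. Without the 2 libraries that stand apart, 0 were called in the first, and 11 higher and 3 lower in the second. Of all 16283 genes tested in that fit, 0 were called in the first, and 4655 higher and 3788 lower in the second. Over the 19 other settings, 14 gave 0 called higher in the first. The interferon gamma gene Ifng differed by 3.32 ± 1.71 (adjusted p 0.133) and the transcription factor gene Irf1 by 2.43 ± 1.25 (0.132) in the second of these. Both differences lay in the range of the H2 genes and did not pass, while the median of the list was 0.38, against 0.03 over all genes.

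Receptors for nonclassical molecules were the next list. Of 10 receptor genes tested, 0 were called for therapy with both tumors and 6 rose with both tumors under therapy, with a list median of 4.02. Over all genes, 5.39% were called in the first comparison, and 24.4% were called higher in the second, with a median of 0.03. Without the 2 libraries that stand apart, 0 and 12 of 13 tested receptor genes were called higher, against 0 and 4655 of all 16283 genes tested. Over the 19 other settings the second count of receptor genes ran from 0 to 12. Klrd1, which encodes CD94, the partner of NKG2 receptors on Qa-1, differed by 4.16 ± 1.55 (adjusted p 0.0486) and had 3.04, 11.5 and 7.05 FPKM with both tumors under therapy, against 0, 0.0784 and 1.00 FPKM with the intracranial tumor only. Its NKG2A partner Klrc1 differed by 3.89 ± 1.52 (0.0579) and Klrk1, which encodes NKG2D, by 2.69 ± 1.66 (0.206). Cd8a, a chain of the CD8 coreceptor, rose by 4.40 ± 1.43 (0.0288). Trdc, the constant segment of the delta chain, was called (0.0434) on few reads, with 4, 13 and 15 reads against 0, 1 and 0. The calls of Klrd1, Cd8a and Trdc held without both libraries that stand apart (adjusted p 0.00622, 0.00285 and 0.00839). They were lost without replicate 2 or 3 of the treated group with both tumors, or replicate 1 or 2 of the treated intracranial group. Klrd1 was also lost without replicate 1 or 3 of both tumors under IgG, and Trdc without replicate 1 of that group, without replicate 3 of the treated intracranial group, with no filter and with limma.

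Of 12 tested genes of innate-like T cells, 0 were called for therapy with both tumors and 6 rose with both tumors under therapy, against 5.39% of all genes called and 24.4% called higher. Without the 2 libraries that stand apart, 0 and 10 of 13 tested genes were called higher, against 0 and 4655 of all 16283 genes tested. The second count of the list ran from 2 to 10 over the other settings. Zbtb16, which encodes PLZF, a transcription factor of NKT and MAIT cells, rose by 4.29 ± 1.13 (adjusted p 0.0121), with 32, 154 and 89 reads against 0, 5 and 8, and it was called in all 19 other settings (adjusted p 9.65e-05 to 0.0425). It did not follow its list elsewhere. Without the 2 libraries that stand apart, it differed by -3.10 ± 0.87 for therapy with the intracranial tumor only. The list median there was 1.99 and the neuron marker median -5.6. For the interaction Zbtb16 stood at 4.10 ± 1.16, against medians of 0.11 for the list and 6.59 for the neuron markers. Which cells gave its reads was not tested. Of 17 genes of lipid and metabolite loading, 5 were called higher for therapy with both tumors, and 11 higher and 1 lower for both tumors under therapy. Over all genes, 1.24% were called higher in the first comparison, and 24.4% higher and 21% lower in the second. In the first, 13 of the 19 other settings gave 0 called higher, the fit without the 2 libraries that stand apart among them, and in the second the count called higher ran from 7 to 12. The lipid transfer protein Mttp was called in neither, at -0.37 ± 0.20 (0.153) under therapy with both tumors against intracranial only.

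Other class I-like genes were measured as a list of 28, of which 25 were in the files and 14 were tested. For therapy with both tumors 1 was called higher, and for both tumors under therapy 5 higher and 1 lower. The shares of all genes were 1.24% called higher in the first comparison, and 24.4% called higher and 21% lower in the second. In the fit without the 2 libraries that stand apart, 0 of 16 tested genes were called in the first, and 8 higher and 1 lower in the second. Over all 16283 genes of that fit, 0 were called in the first, and 4655 higher and 3788 lower in the second. Fcgrt, the neonatal Fc receptor that recycles IgG, rose with therapy in mice with both tumors, with 19.5, 22.9 and 21.5 FPKM under therapy, against 12.3, 9.98 and 13.4 FPKM under IgG (log2 0.83 ± 0.17, adjusted p 0.0498). That call lay at the threshold and was lost in 13 of the 19 other settings, with RLE size factors, with no filter, with the 2 groups alone, without both libraries that stand apart (0.74 ± 0.14, adjusted p 0.112) and in 9 of the 12 fits without 1 library. It was kept with DESeq2, limma and summed copies, and without replicate 1 of the treated group with both tumors, replicate 3 of both tumors under IgG or replicate 2 of intracranial only under IgG. Its treated libraries with both tumors also stood above the treated libraries with the intracranial tumor only, which had 9.96, 8.51 and 10.3 FPKM (1.08 ± 0.17, 0.00455), a call kept in all 19 other settings. The H2 relatives H2-T24 (2.48 ± 0.87, 0.0381) and H2-Q10 (1.13 ± 0.39, 0.0358) rose in the same comparison. Both calls held without the 2 libraries that stand apart (adjusted p 0.00904 and 0.0281) and were lost without replicate 2 or 3 of the treated group with both tumors, or replicate 1 or 2 of the treated intracranial group. That of H2-Q10 was also lost without replicate 3 of the treated intracranial group and with no filter. H2-T10, the near copy of H2-T22, differed by 2.70 ± 1.25 (0.0999) and the iron regulator Hfe by 0.28 (0.205).

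Markers of other cells moved with the H2 genes, and in bulk tissue fewer cells of a type and less RNA per cell cannot be told apart. The 7 T cell markers averaged 2.48, 3.50 and 3.51 log2 CPM under therapy with both tumors, against 0.54, -1.91 and 0.97 under IgG. They averaged -1.93, -1.97 and 0.33 under therapy with the intracranial tumor only, against -2.32, 1.37 and -2.76 under IgG, and the libraries high for the H2 genes were high here too. Cd8b1 had 0 reads in 4 libraries and Cd3e in 2. The 5 NK cell markers averaged -2.39 to 2.15 and the 7 macrophage and monocyte markers 1.99 to 6.04, with their high libraries in the same places. The part of these cells in the differences above was not tested.

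Brain tissue also moved with the group under therapy. The 8 neuron markers averaged 5.10, 6.87 and 6.58 log2 CPM under therapy with both tumors, against 1.24, -0.03 and -0.53 under therapy with the intracranial tumor only. All 8 markers were called higher, against 24.4% of all genes. Under IgG they averaged 5.13, 0.52 and 5.65 with both tumors, against 5.04, 4.08 and 5.44 with the intracranial tumor only. The 8 nonclassical genes averaged 5.07, 6.50 and 6.10 log2 CPM under therapy with both tumors, against 4.16, 2.17 and 4.53 under IgG. They averaged 2.25, 2.21 and 4.23 under therapy with the intracranial tumor only, against 1.84, 5.32 and 2.15 under IgG. In each of the groups with both tumors, the libraries ranked alike on the neuron markers and the 8 genes. With the intracranial tumor only they did not, since replicate 3 under therapy and replicate 2 under IgG had the highest averages of the 8 genes and the lowest neuron averages of their groups. The part of brain tissue in the differences above was not tested. Of 4 B cell markers, 1 passed the filter on low counts, and it had -1.60 to 0.37 log2 CPM.

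**Figure D4:**
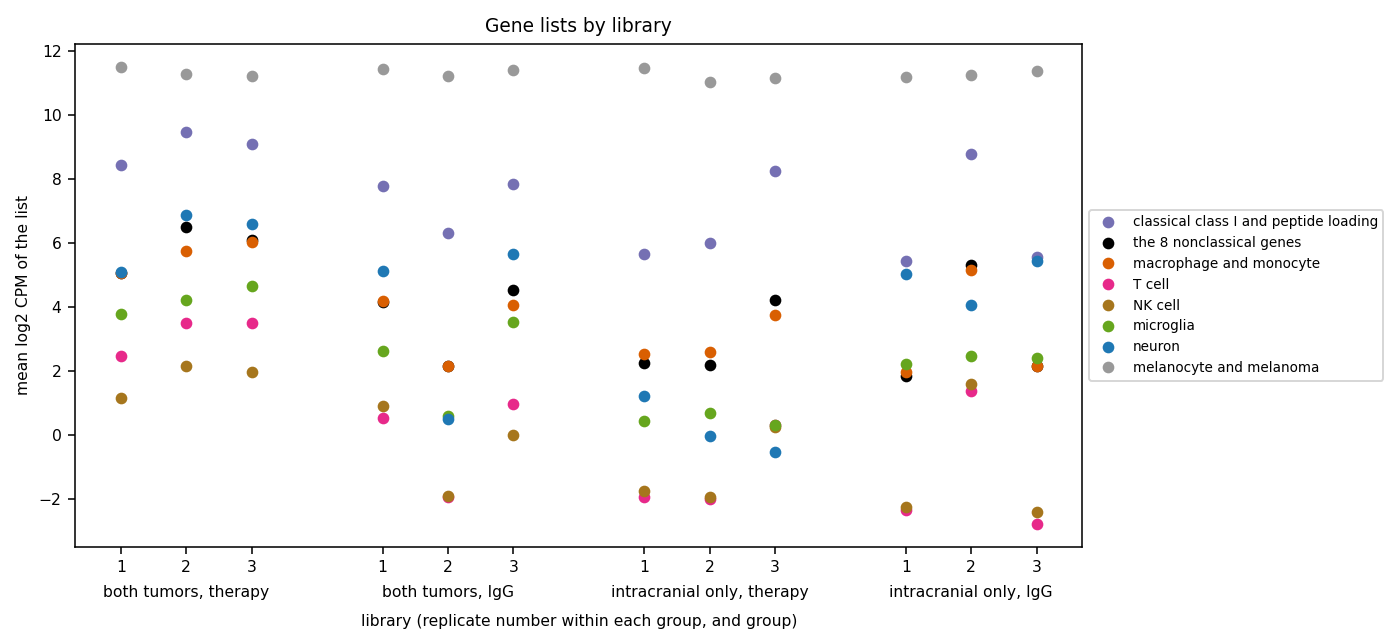
Mean log2 CPM of gene lists in each library, with groups from both tumors under therapy to intracranial only under IgG; each point is 1 list in 1 library. The 8 nonclassical genes, the classical and loading genes and the T cell, NK cell and macrophage markers are high and low in the same libraries, the melanocyte markers stay within 11.01 to 11.50, and the neuron markers are low in the treated group with the intracranial tumor only, at -0.53 to 1.24, and in replicate 2 of both tumors under IgG, at 0.52.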

How the data were processed

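RNA-seq was run on 12 intracranial B16 F1 tumors in 4 groups of 3. Per the labels' protocols, the RNAqueous-Micro kit gave the RNA and NEBNext Ultra the libraries. The authors deposited raw read counts per Ensembl gene; TopHat2 2.0.12, Bowtie2 2.2.3, HTSeq 0.6.1 and the builds GRCm38 and mm10 are named in the submitters' processing notes. No source used here gives the strand setting or annotation release. The authors also deposited FPKM values; these equalled the count over 1 gene length and the library total for each of the 16062 genes read in all libraries (relative tolerance 1e-06). Of 47069 identifiers, 46488 matched a symbol.

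The counts were tested with edgeR 4.0.16 (R 4.3.3), quasi-likelihood, TMM factors, filterByExpr (minimum count 10, minimum total 15; 15925 genes kept), 4 group means over all 12 libraries and Benjamini-Hochberg adjustment over all genes tested, at 0.05. SE is the absolute log2 fold change over the square root of F. Levels are FPKM. Alternatives were RLE size factors, no filter, the 2 groups alone, DESeq2 1.42.0, limma 3.58.1 on log2(FPKM + 1), summed copies (H2-Q6 with H2-Q7, H2-T22 with H2-T10), both libraries that stand apart left out, and each library left out in turn. The test was checked on simulated counts.

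Positions come from GENCODE on GRCm38 and promoter windows from RefSeq on GRCm38.p6. Named genes were the 8 genes, 8 class I-like relatives, 18 pathway genes and the 3 genes most alike to each of the 8 by Pearson r of log2 CPM (prior count 2, mean of at least 1 CPM); gene lists are described by counts. Some genes that meet this rule are not reported here. H2-Q8 and H2-Q9 were not analysed here. The genes, lists and the libraries left out together were chosen with earlier results of these data known. No pairing, batch or replicate number is given by the labels.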

Additional observations from a re-analysis of the deposited data

Results flagged for a closer look

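Among the class I-like relatives, 2 genes had a therapy effect that differed between mice with both tumors and mice with the intracranial tumor only, by the interaction term of the edgeR fit adjusted over all genes, which 22% of all genes passed. For H2-Q10 the difference was 1.76 ± 0.55 (log2, adjusted p 0.0452). H2-Q10 had 1.20, 2.04 and 1.33 FPKM under therapy with both tumors, against 0.896, 0.634 and 0.578 FPKM under IgG, and 0.521, 0.648 and 0.812 FPKM under therapy with the intracranial tumor only, against 1.12, 1.55 and 0.585 FPKM under IgG. For Fcgrt the difference was 0.92 ± 0.24 (adjusted p 0.0328). Fcgrt had 19.5, 22.9 and 21.5 FPKM under therapy with both tumors, against 12.3, 9.98 and 13.4 FPKM under IgG, and 9.96, 8.51 and 10.3 FPKM under therapy with the intracranial tumor only, against 9.61, 13.4 and 8.71 FPKM under IgG. The treated libraries with both tumors were the high ones for both genes; for H2-Q10, replicate 2 of intracranial only under IgG lay among them. Without both libraries that stand apart, neither was called, at 1.38 ± 0.58 for H2-Q10 (adjusted p 0.158) and 0.63 ± 0.20 for Fcgrt (0.0775). Of the 12 fits without 1 library, 11 lost the call of H2-Q10 and 8 that of Fcgrt. Among those fits H2-Q10 was called only without replicate 1 of the treated group with both tumors; Fcgrt was called there, without replicate 2 or 3 of both tumors under IgG and without replicate 1 of intracranial only under IgG. With no filter both calls were lost.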

How the results depend on the processing

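Over the 8 genes and 5 comparisons, 752 alternative values were computed: 665 kept direction and side of the threshold, 47 reversed, 31 passed and 9 lost the threshold. For therapy with both tumors, 0 of the 8 genes were called under every alternative. The count over all genes there was 858, but 0 with RLE size factors, no filter, the 2 groups alone or both libraries that stand apart left out, 3139 with DESeq2, 2630 with limma, and 0 to 2394 with 1 library left out. For therapy with the intracranial tumor only it was 0, but 839 with the 2 groups alone, 1038 with DESeq2, 1067 without both libraries and 0 to 1002 with 1 left out. For both tumors under therapy it was 7231, and 4710 to 8128 with 1 left out, with 0 to 6 of the 8 genes called. Of the 8, 6 were called with the 2 groups alone, 5 with DESeq2, 7 with limma and 8 without both libraries. The shares of all genes there were 47.5%, 26.6%, 46.2% and 51.9%. For the interaction the count over all genes was 3505, but 1674 without both libraries and 0 to 4367 with 1 left out. DESeq2 called 1 of the 8 genes there, against 16.6% of all genes.

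Reversals fell in the comparisons that hold the libraries that stand apart. For therapy with the intracranial tumor only, leaving both out gave 1.91 (H2-Q4), 2.12 (H2-Q6), 1.95 (H2-Q7), 1.43 (H2-T22), 2.35 (H2-T23), 1.53 (H2-M3) and 0.09 (Cd1d1), and limma gave 0.04 for H2-Q4. With 1 library left out the values ran from -1.81 to 1.90 (H2-Q4), -3.16 to 2.11 (H2-Q6), -2.78 to 1.94 (H2-Q7), -1.96 to 1.43 (H2-T22), -3.52 to 2.35 (H2-T23), -2.05 to 1.52 (H2-M3) and -0.86 to 0.09 (Cd1d1). For the extracranial tumor under IgG, leaving both out gave 2.65 (H2-Q4), 3.82 (H2-Q7), 1.93 (H2-T22), 3.04 (H2-T23), 2.39 (H2-M3) and 0.72 (Cd1d1); limma gave 0.55 (H2-Q4), 0.43 (H2-Q7), 0.23 (H2-T22), 0.35 (H2-T23), 0.49 (H2-M3) and -0.02 (Mr1), and summed copies -0.18 for H2-Q6. With 1 left out they ran from -0.70 to 2.22 (H2-Q4), -0.51 to 3.86 (H2-Q6), -0.96 to 3.29 (H2-Q7), -0.93 to 1.57 (H2-T22), -1.30 to 2.54 (H2-T23), -0.69 to 2.06 (H2-M3), -0.55 to 0.44 (Cd1d1) and -0.17 to 0.32 (Mr1). For the interaction, leaving both out gave -0.23 (H2-Q4) and -0.09 (H2-Q6). The cause was not tested. Where a fit left 2 libraries in a group, the common spread was used. Calls of Cd1d1 rest on 8 to 55 reads a library. No paired analysis was run, since each library is labelled as a separate biological sample and the labels give no pairing.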

Other observations

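H2-M2, a class I-like gene of the M region, was named after its values had been seen. It had 46, 61 and 37 reads under therapy with both tumors, against 9, 0 and 3 reads under IgG, and 4, 0 and 1 reads under therapy with the intracranial tumor only, against 0, 1 and 2 reads under IgG. Replicate 2 of intracranial only under IgG, in which the H2 genes above were high, had 1 read. The log2 difference was 4.61 ± 1.02 (adjusted p 0.00606, edgeR) between both tumors and intracranial only under therapy, and 3.50 ± 0.92 (adjusted p 0.0514) between therapy and IgG with both tumors. H2-Q5, also named after its values had been seen and a sharer of stretches with H2-Q7, had 66, 157 and 159 reads under therapy with both tumors, against 6, 2 and 23 reads under therapy with the intracranial tumor only (3.55 ± 1.07, adjusted p 0.0213). Without both libraries that stand apart, the differences between both tumors and intracranial only under therapy were 4.61 ± 0.81 for H2-M2 (adjusted p 0.0015) and 3.53 ± 0.68 for H2-Q5 (0.00238). H2-M2 was called there in all 19 other settings, and H2-Q5 in 15, the call being lost without replicate 2 or 3 of the treated group with both tumors or replicate 1 or 2 of the treated intracranial group.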
